A study of Mus musculus with 4 samples.

Results

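The genes described here are 9 mouse genes that take up, bind, make, break down or sense retinoids, out of 26433 genes with reads in embryonic cortex: Stra6, Crabp1, Crabp2, Aldh1a2, Aldh1a3, Cyp26b1, Rara, Rarb and Rxra. They were chosen by name with the measured counts and the knock-in comparison of these libraries already known, so their differences between genotypes are given as a description and carry no test. Crabp1, Crabp2, Cyp26b1 and, by a small margin, Rara had higher levels in both knock-in libraries than in both WT libraries. Aldh1a3 had lower levels, and Rxra differed little. The libraries of the genotypes were separated in this way, in either direction, for 34.1% of all tested genes. For Cyp26b1 the log2 difference of 0.44 became 0.09 without WT1. None of the 7 genes with enough reads to be tested was called between the genotypes, beside 0.120% of all tested genes.

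RNA sequencing compared 2 WT and 2 SERPINA3 conditional knock-in (cKI f/+) libraries from cerebral cortex of mouse embryos at embryonic day 15 (E15), with a strain label of C57BL/6. In cKI f/+ embryos a CAG-driven human SERPINA3 sequence, which encodes a secreted serine protease inhibitor, sits in 1 Rosa26 allele behind a floxed STOP cassette, and Nestin-Cre removes the cassette in Nestin-positive cells, the neural progenitors, and in their progeny. The WT controls were littermates, whose labels do not say whether they carried Cre or the floxed allele, and the human transcript was not analysed here, so the counts do not check the knock-in. By the methods, founders with the floxed allele were bred with B6D2F2 mice, and their offspring were crossed with Nestin-Cre mice of C57BL/6 background. The strain label alone therefore does not show that the embryos shared an inbred background. The methods describe the tissue as telencephalic and define biological replicates of the mouse experiments in general as different embryos. The labels describe triplicate sequencing, whether a library is 1 embryo or a pool is not given, and p-values measure only the spread between the 4 libraries.

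Retinoids are derivatives of vitamin A. Cells take up retinol through the membrane receptor Stra6 and oxidise it by way of retinaldehyde to retinoic acid, the last step being the work of the Aldh1a enzymes, and Cyp26 enzymes break retinoic acid down. Crabp proteins bind retinoic acid inside the cell, and nuclear retinoic acid receptors (RARs) paired with retinoid X receptors (RXRs) turn it into changes in transcription at response elements in DNA. In the embryonic forebrain the meninges make retinoic acid through Aldh1a2 and the lateral ganglionic eminence makes it through Aldh1a3.

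A classical response element is the DR5, a direct repeat of the receptor hexamer with a spacer of 5 bases. Hexamers NGNTCA, with A or G as the first letter and G or T as the third, were searched on both strands of RefSeq promoter windows of 300 bases on GRCm38.p6. Windows were matched by symbol for 7 of the 9 genes, and among these 7 genes a DR5 was found for Rarb alone. Of all 32851 windows, 0.0974% held a DR5, whereas 43.7% held at least a single hexamer, as did 5 of the 14 windows of the 7 genes. Repeats with a spacer of 1 base (DR1, in 0.222% of all windows) or 2 bases (DR2, in 0.268%) were found for none of the 7. Among the 34 of 47 other retinoid pathway genes with a window, a DR5 was found for Cyp26a1 and a DR1 for Bco1. The 100 bases before the start site are shown for Rarb and Cyp26a1, which hold the repeat, and for Cyp26b1 and Crabp1, 2 of the genes that were higher in cKI f/+ libraries, with the DR5 in capitals. The Rarb window (chr14:16575477-16575576, minus strand) lies inside the deposited span of the gene, its DR5 running from position -53 to -37 relative to the start. Of the Cyp26b1 window (chr6:84593811-84593910, minus strand), 98 of the 100 bases lie inside the deposited span, which reaches past the RefSeq start. Outside the deposited gene spans lie the windows of Cyp26a1 (chr19:37697708-37697807, plus strand), with the DR5 on the opposite strand from -32 to -16, and of Crabp1 (chr9:54764648-54764747, plus strand). A match describes letters only.
Rarb: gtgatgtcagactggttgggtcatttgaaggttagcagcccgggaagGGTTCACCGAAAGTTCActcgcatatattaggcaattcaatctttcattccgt
Cyp26a1: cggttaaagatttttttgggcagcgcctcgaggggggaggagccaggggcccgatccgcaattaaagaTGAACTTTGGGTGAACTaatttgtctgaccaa
Cyp26b1: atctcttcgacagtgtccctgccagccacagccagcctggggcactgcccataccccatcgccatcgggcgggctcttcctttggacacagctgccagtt
Crabp1: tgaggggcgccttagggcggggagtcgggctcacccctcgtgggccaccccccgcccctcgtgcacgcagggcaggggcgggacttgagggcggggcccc

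The libraries KI2, KI3, WT1 and WT3, named as the deposited columns name them, held 17423512 to 18119444 gene counts, and the biological coefficient of variation in the fit over all genes was 8.72%. The floor used here was 3 counts, which is 0.166 to 0.172 CPM (counts scaled to a common normalised library size). The 95% exact Poisson interval of 0 counts reached 3.69 counts. Of 15786 genes tested with edgeR's quasi-likelihood test, 19 were called at an adjusted p under 0.05, which is 0.120%. All 5 sex-linked genes followed genotype, with 13223 and 11882 Xist reads in KI2 and KI3 against 5 in each WT library and Kdm5d reads in WT libraries alone, so that embryo sex and genotype cannot be told apart for any gene below.

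Stra6, the membrane receptor for retinol bound to its plasma carrier, showed no separation of the genotypes (chr9:58063788-58153996, plus strand, GRCm38 positions as in the deposited table, here and for all genes below). It had 50 reads in KI2 and 85 in KI3, and 61 in WT1 and 66 in WT3. Both the lowest and the highest library were cKI f/+, KI3 having 1.65 times the CPM of KI2. On the log2 scale the genotypes differed by 0.06 ± 0.28 (SE, n = 2 per group).

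Crabp1 and Crabp2 are small cytosolic carriers of retinoic acid, Crabp1 being associated with its turnover and Crabp2 with its delivery to receptors in the nucleus. Crabp1 (ENSMUSG00000032291, chr9:54764748-54773110, plus strand) had 196 reads in KI2 and 193 in KI3 against 111 in WT1 and 125 in WT3. Its level was 10.9 ± 0.336 CPM in cKI f/+ cortex and 6.73 ± 0.623 CPM in WT (SD, n = 2 each), and the gap between the genotypes was wider than the distance between libraries of 1 genotype. The log2 fold change was 0.69 ± 0.17 (SE), and it stayed between 0.60 and 0.79 when any library was left out. Of all tested genes, 3.72% had a log2 fold change at least as far from 0 in either direction. Crabp1 was chosen with this comparison known, so that share describes its place and is not a test. Its adjusted p was 0.620 in edgeR's quasi-likelihood test.

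Crabp2 (ENSMUSG00000004885, chr3:87948666-87953376, plus strand) had 82 reads in KI2 and 134 in KI3, and 69 in WT1 and 68 in WT3. The WT libraries were nearly equal, KI2 stood a little above them and KI3 well above, with 1.59 times the CPM of KI2. The level was 6.02 ± 1.94 CPM in cKI f/+ and 3.91 ± 0.00647 CPM in WT (SD, n = 2 each), a log2 difference of 0.62 ± 0.25 (SE). Without KI3 it was 0.25, and without KI2 it was 0.91. Crabp1 made up 70.5% of the reads of the 2 genes in KI2 (95% Wilson interval 64.9 to 75.6), 59.0% in KI3 (53.6 to 64.2), 61.7% in WT1 (54.4 to 68.5) and 64.8% in WT3 (57.8 to 71.2). The Crabp1 share was thus highest in KI2 and lowest in KI3, with both WT libraries between them; these intervals cover counting error only.

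**Figure D1:**
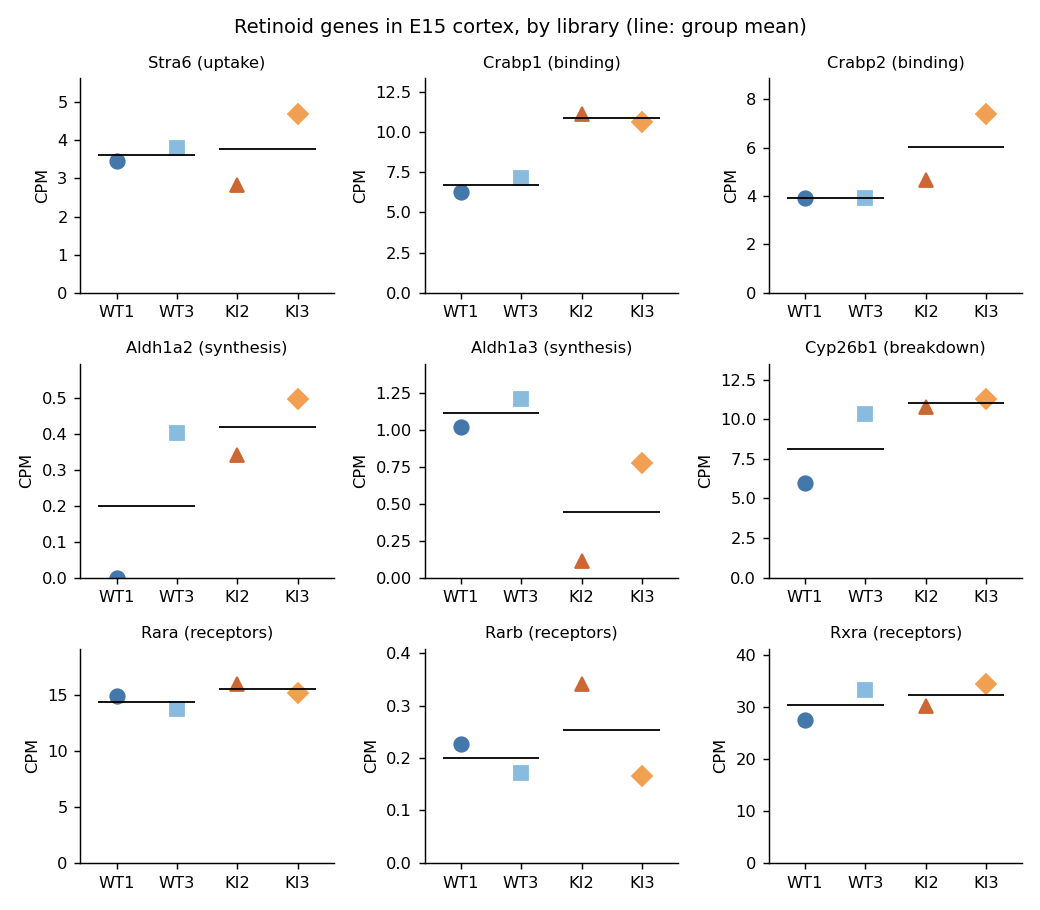
Level of each of the 9 retinoid genes in CPM (y axis, starting at 0 and scaled separately in each panel) in the 4 libraries (x axis), each point being 1 library and each line the mean of 2. Crabp1 is near 11 CPM in both cKI f/+ libraries and at 6.29 and 7.17 CPM in the WT libraries, whereas Crabp2 is highest in KI3 and Cyp26b1 lowest in WT1.

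Aldh1a2 and Aldh1a3, retinaldehyde dehydrogenases that make retinoic acid, were close to the limit of detection. Aldh1a3 (ENSMUSG00000015134, chr7:66390890-66427517, minus strand) had 2 reads in KI2 and 14 in KI3, and 18 in WT1 and 21 in WT3. The exact Poisson interval of 2 reads is 0.242 to 7.22, and that of 14 reads, 7.65 to 23.5, takes in both WT counts. The fitted log2 fold change was -1.30 ± 0.64 (SE, n = 2 per group), but -0.53 without KI2 and -3.21 without KI3, so that its size depended on KI2. The level was 0.443 ± 0.466 CPM in cKI f/+ and 1.11 ± 0.131 CPM in WT (SD).

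KI2 was also the library with the fewest reads of several markers of the ganglionic eminence and striatum. Gsx2, a progenitor factor of the lateral ganglionic eminence, had 2 reads in KI2 and 28, 29 and 40 in KI3, WT1 and WT3. Isl1, of striatal neurons, had 1 read in KI2 and 30, 21 and 32 in the others. Six3 had 5 reads in KI2 and 34, 31 and 112 in the others. Other genes of the list did not follow this. Drd1 was highest in KI2, with 98 reads there and 79, 94 and 84 in the others. Zfp503 was lowest in WT1, with 95 reads in KI2 and 142, 80 and 140 in the others. Over the 12 genes of that list, 0 were called, 11 had a negative fold change, and the summed level was 151 and 183 CPM in cKI f/+ against 175 and 232 CPM in WT, with no gene of the list at 0 in any library. Their part in the Aldh1a3 counts was not tested, and in bulk tissue fewer cells of a type and less RNA per cell cannot be told apart, here or for any other gene.

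Aldh1a2 (chr9:71215789-71296243, plus strand) had 6 and 9 reads in KI2 and KI3, with 0 and 7 in WT1 and WT3, and was too low to enter the test. KI2 lay below WT3, so the genotypes overlapped, and the exact Poisson interval of the 0 counts in WT1 reached 3.69. Of 9 markers of meningeal fibroblasts, 6 were tested and 0 called, and the list summed to 23.0 and 21.0 CPM in KI2 and KI3 against 11.3 and 12.2 CPM in WT1 and WT3. Col1a1 had 82 and 64 reads in cKI f/+ and 10 and 28 in WT, and Col3a1 had 117 and 121 against 72 and 64, whereas the meningeal transcription factor Foxc1 had 26 and 38 against 53 and 35. Lum was at 0 in WT1 and Slc6a13 at 0 in WT3. The part of the meninges in the levels of Aldh1a2, Crabp1 and Crabp2 was not tested.

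Cyp26b1 (ENSMUSG00000063415, chr6:84571414-84593908, minus strand), which oxidises retinoic acid to inactive products, had 190 reads in KI2 and 204 in KI3 against 105 in WT1 and 180 in WT3. The cKI f/+ libraries were close to each other and WT3 was only a little below them, while WT1 was low. Levels were 11.0 ± 0.334 CPM in cKI f/+ and 8.14 ± 3.10 CPM in WT (SD, n = 2 each), WT3 having 1.74 times the CPM of WT1. The log2 fold change of 0.44 ± 0.24 (SE) became 0.09 without WT1 and 0.89 without WT3. The related Cyp26a1, whose promoter holds the DR5 shown above, had 0, 2, 4 and 0 reads in KI2, KI3, WT1 and WT3, and Cyp26c1 had 2 reads in all, in KI2.

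Among the receptors, Rara (ENSMUSG00000037992, chr11:98927818-98974942, plus strand) had 281 and 275 reads in cKI f/+ and 263 and 240 in WT. The libraries did not overlap, but the levels of 15.6 ± 0.548 and 14.3 ± 0.803 CPM (SD, n = 2 each) lay close together, with a log2 difference of 0.12 ± 0.13 (SE). Rxra (ENSMUSG00000015846, chr2:27676440-27762957, plus strand), a partner of RARs and of other nuclear receptors, had 531 and 621 reads in cKI f/+ and 485 and 577 in WT. These overlapped, and the log2 difference of 0.09 ± 0.12 (SE) ran from -0.04 without WT1 to 0.23 without WT3. Rarb (chr14:16430839-16819156, minus strand), the receptor gene with the DR5 shown above and a classical target of retinoic acid, had 6 and 3 reads in cKI f/+ and 4 and 3 in WT. The exact Poisson interval of 3 reads, from 0.619 to 8.77, takes in the counts of all 4 libraries, and no difference was detectable at this depth.

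The make-up of the receptor families was alike in all libraries when reads were divided by exon length. Rara supplied 42.9% to 49.4% of the RAR total over the 4 libraries and Rarg 50.2% to 56.7%, leaving at most 0.837% for Rarb. Among RXRs, Rxrb supplied 82.5% to 85.2%, Rxra 14.3% to 16.3% and Rxrg 0.404% to 1.46%. Cyp26b1 supplied 90.7% to 100% of the Cyp26 total. The Aldh1a family was the exception, with 14 to 35 reads per library in all and an Aldh1a3 share from 10.1% in KI2 to 82.8% in WT1, and with Aldh1a1 at 6 and 11 reads in cKI f/+ and 4 and 7 in WT.

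**Figure D2:**
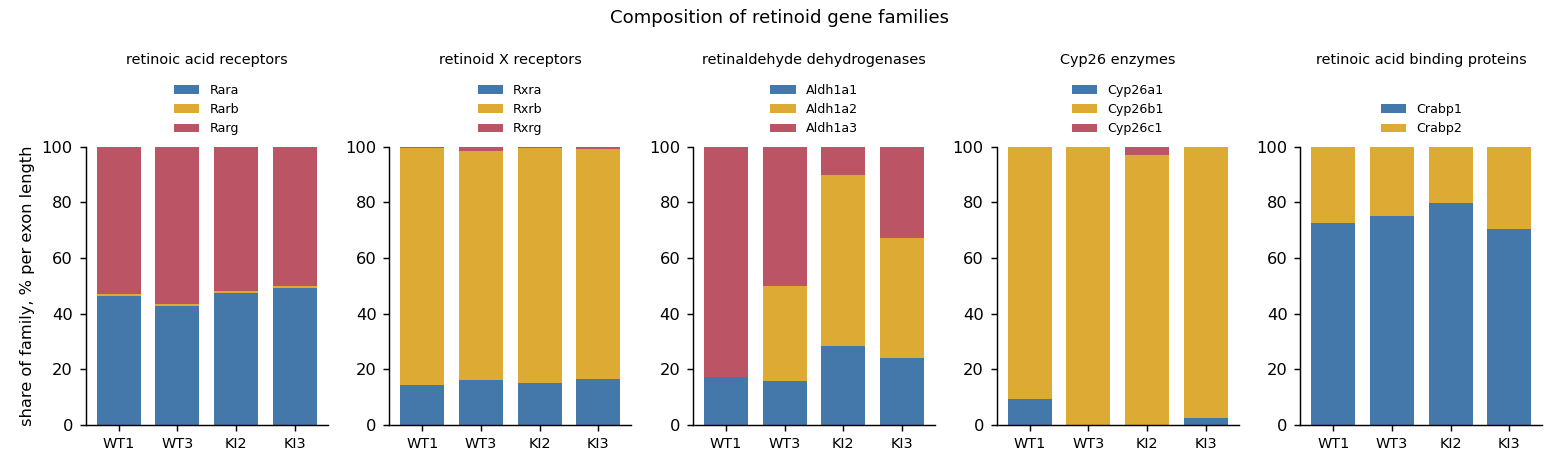
Share of each family's summed level (y axis, percent of reads per exon length) taken by each gene in the 4 libraries (x axis). The RAR and RXR bars are nearly the same in every library, with Rxrb at 82.5% to 85.2% of RXR, whereas the retinaldehyde dehydrogenase bars, which rest on 14 to 35 reads, differ from library to library.

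Per kilobase of exon, Crabp1 had the highest level of the 9 genes and Rarb the lowest. Mean levels over the 4 libraries were 11.0 CPM per kilobase for Crabp1 (range 7.85 to 13.9), 5.72 for Rxra (5.03 to 6.27), 3.76 for Crabp2 (2.95 to 5.59) and 3.43 for Rara (3.16 to 3.65). Below them, the same quantity was 1.79 for Cyp26b1 (1.11 to 2.10), 0.634 for Stra6 (0.487 to 0.805), 0.168 for Aldh1a3 (0.0246 to 0.261), 0.137 for Aldh1a2 (0 to 0.219) and 0.0430 for Rarb (0.0314 to 0.0647). The ranges of Rxra and Crabp2, Crabp2 and Rara, Aldh1a3 and Aldh1a2, and Aldh1a2 and Rarb overlapped, and those of the other neighbours in the order did not. Relatives of these genes ranged from Fabp5, a fatty acid binding protein that can also carry retinoic acid, at 95.9 CPM per kilobase and Rxrb at 31.0, through Rarg at 3.91, to Rxrg at 0.308, Aldh1a1 at 0.0800 and Cyp26a1 at 0.0425. The order of the 9 genes did not change with the longest transcript in place of all exons or with library totals in place of normalised ones.

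**Figure D3:**
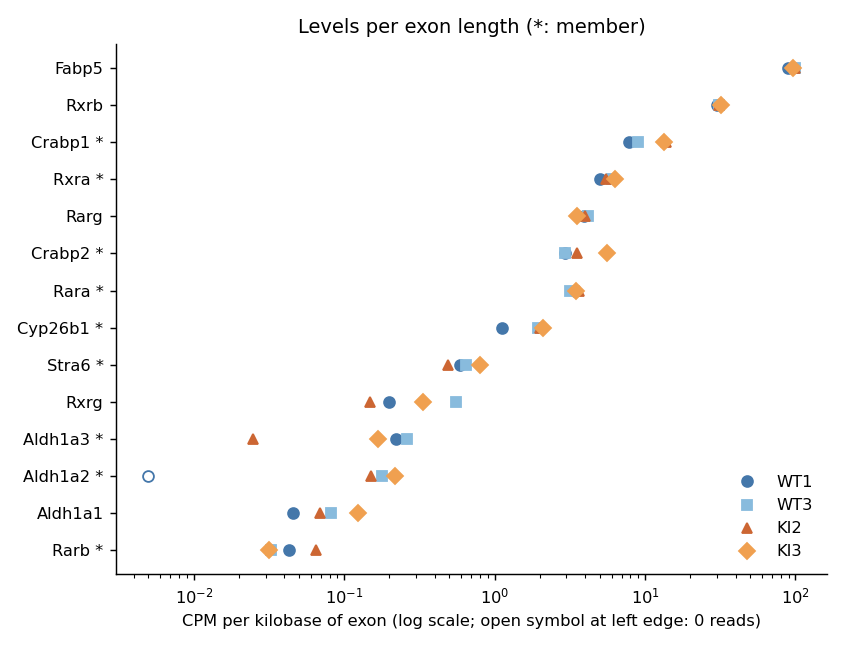
Level per exon length (x axis, CPM per kilobase, log scale) of the 9 genes, marked with an asterisk, and 5 relatives, each symbol being 1 library and the open symbol at the left edge a library with 0 reads. Crabp1 and Rxra lead the 9 genes at means of 11.0 and 5.72, and Aldh1a3, Aldh1a2 and Rarb lie below 0.3 in every library.

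Of the 9 genes, 7 had enough reads to be tested and 0 were called, against the 0.120% called over all genes; DESeq2 and edgeR's likelihood ratio test also called 0. At an unadjusted p under 0.05 there were 2, Crabp1 and Crabp2, where the share over all tested genes was 4.60%. The libraries of the genotypes did not overlap for 5 of the 7, cKI f/+ being higher for 4 and lower for Aldh1a3, and over all tested genes this share was 34.1%. The median log2 fold change of the 7 was 0.12, beside 0.0043 for all tested genes. Since the genes were chosen with this comparison known, nothing is read from these counts.

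The rest of the pathway was followed in 47 other genes, of which 41 had a row in the deposited table and 29 were tested. In edgeR's quasi-likelihood test 0 of the 29 were called, 15 had a positive and 14 a negative fold change, and their median log2 fold change was 0.0045. At an unadjusted p under 0.05 there were 3, Ttr and Meis2 among them, beside 4.60% of all genes, and edgeR's likelihood ratio test called 1, Ttr.

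Ttr, the plasma carrier of retinol-binding protein, had 116 and 956 reads in KI2 and KI3 against 0 and 4 in WT1 and WT3, with an adjusted p of 0.115 in edgeR's quasi-likelihood test. KI3 alone held most of the Ttr reads, and Ttr is also a leading marker of the choroid plexus. Of the 8 choroid plexus markers, 5 were tested and 0 called. All 8 summed to 11.0 and 71.4 CPM in KI2 and KI3 against 2.83 and 5.34 CPM in WT1 and WT3. Kl of that list had 2, 0, 0 and 1 reads in KI2, KI3, WT1 and WT3. Ttr itself made up much of the sum. The other 7 markers summed to 4.37 and 18.6 CPM in KI2 and KI3 against 2.83 and 5.11 CPM in WT1 and WT3, so that in this sum only KI3 stood above WT3. Single genes differed from the sum. Aqp1 had 30 and 65 reads in KI2 and KI3 against 15 and 12 in WT1 and WT3, and Clic6 had 15 and 118 against 5 and 10. Otx2, with 13 and 64 against 19 and 39, was lowest in KI2. KI3 was the highest library for the choroid plexus sum, and also for Crabp2, Stra6, Rxra, Cyp26b1 and Aldh1a2. The part of the choroid plexus in these levels was not tested.

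In the other steps of the pathway no tested gene was called. Of the genes that interconvert retinol and retinaldehyde, 0 of 10 tested were called, the most abundant being Adh5 (log2 fold change 0.01) and Dhrs4 (-0.01), and the carotenoid-cleaving enzyme Bco2 had 10, 2, 11 and 11 reads in KI2, KI3, WT1 and WT3. Dgat1, which esterifies retinol and other alcohols, was at 0.05, and Fabp5 was also at 0.05, with 6226 and 6190 reads in cKI f/+ and 5620 and 6184 in WT. Of the other receptors, Rxrb was at 0.04 and Rarg at -0.10, while Rxrg had 6 and 14 reads against 8 and 22. Among 7 coregulators 0 were called, the corepressor Ncor1 being at 0.0045 and the coactivator Ncoa3 at -0.12. Meis2, a homeobox gene induced by retinoic acid in several tissues, had 6183 and 6612 reads in cKI f/+ against 7483 and 7150 in WT, a log2 fold change of -0.22 ± 0.07 (SE, adjusted p = 0.969 in edgeR's quasi-likelihood test), and Btg2 was at 0.0048. The part of retinoic acid, or of cells of the ganglionic eminence and striatum, in the Meis2 level was not tested. Adh1, Adh7, Bco1 and Cyp26c1 were at or under 3 counts in every library.

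**Figure D4:**
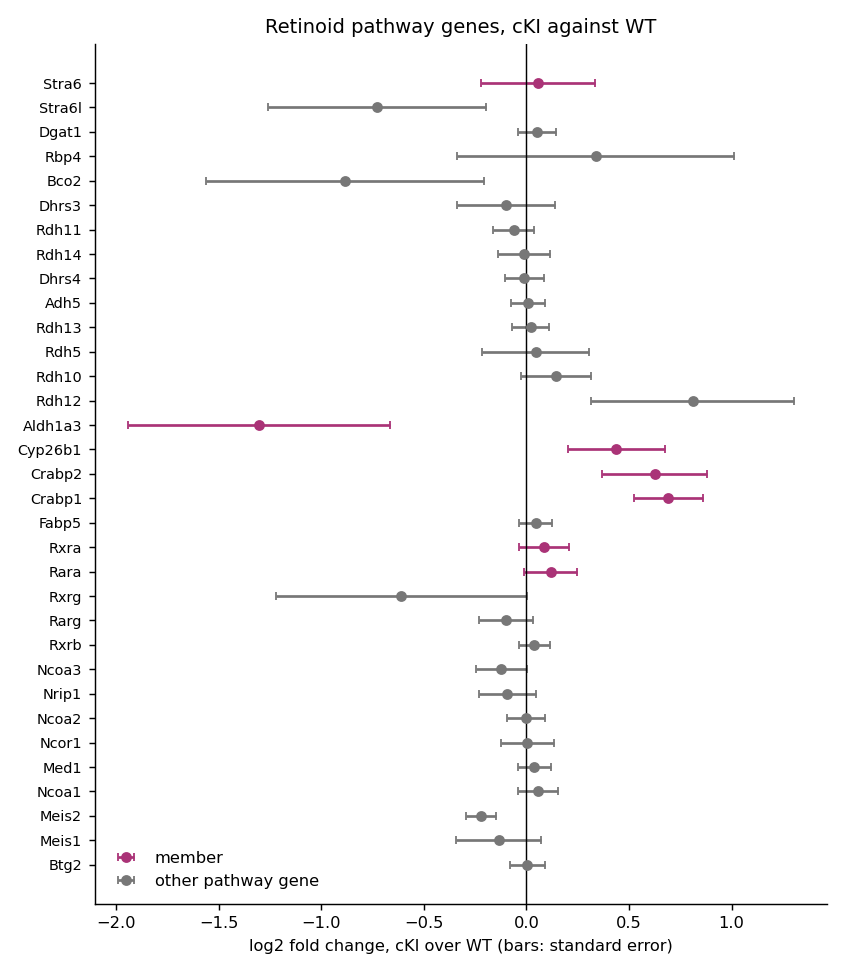
Log2 fold change of cKI f/+ over WT (x axis) with its standard error (bars, n = 2 libraries per group) for the 7 tested genes of the 9 and for 26 other pathway genes, ordered by role; Ttr, at 7.94, lies off the scale and is left out. The plotted points farthest from 0 are Aldh1a3 at -1.30, Bco2 at -0.89, Rdh12 at 0.81, Stra6l at -0.73, Crabp1 at 0.69, Crabp2 at 0.62 and Rxrg at -0.61.

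Markers of the tissue itself were abundant, as the label gives it. The 9 dorsal cortex markers summed to 4270 and 4059 CPM in cKI f/+ and 4505 and 4310 CPM in WT, with 0 called. Cajal-Retzius markers, which mark early neurons at the cortical surface, summed to 474 and 312 CPM against 346 and 320 CPM, KI2 being highest. Lhx1 of that list had 173 and 178 reads against 98 and 138. Libraries were separated by genotype, in either direction, for 34.1% of all tested genes. Nkx2-1, a factor of the medial ganglionic eminence, had 19 and 17 reads against 6 and 3, in a list of 5 genes that summed to 125 and 117 CPM against 106 and 124 CPM and in which Lhx8 was at 0 in all but KI2. Thalamic markers summed to 35.8 and 43.1 CPM in cKI f/+ and 34.4 and 39.5 CPM in WT, with Gbx2 at 0 in all but WT1. Endothelial markers summed to 81.7 and 92.6 against 93.9 and 89.4 CPM, microglial markers to 22.7 and 25.7 against 28.5 and 27.4 CPM, and red blood cell markers to 494 and 367 against 491 and 522 CPM. No gene of these lists was called, and the part of these cells in the Crabp1, Crabp2 and Cyp26b1 levels was not tested.

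**Figure D5:**
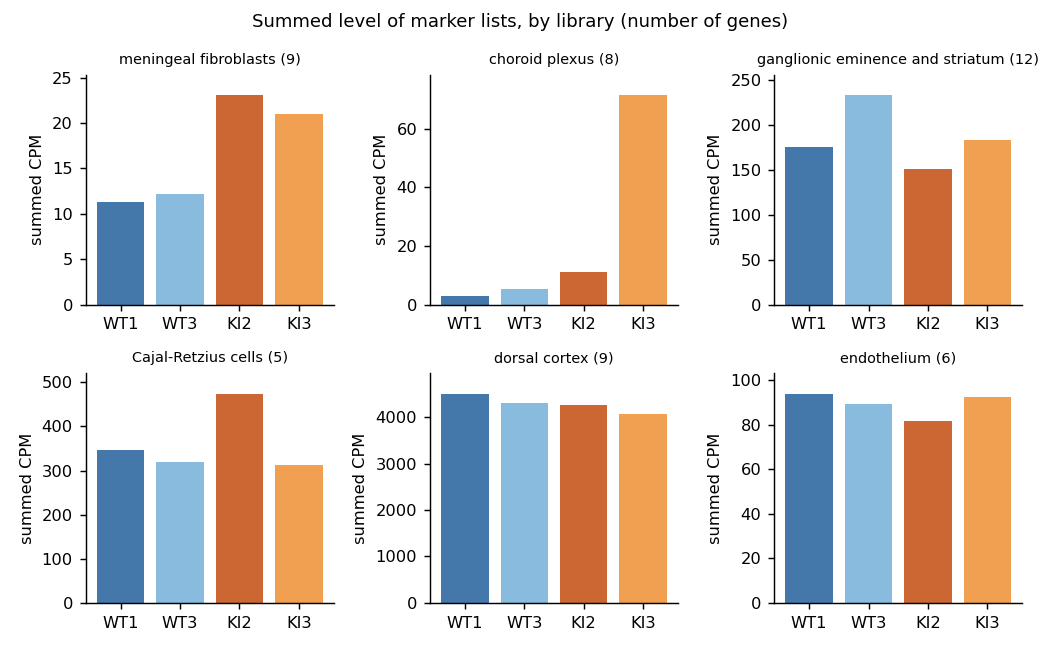
Summed level of 6 marker lists (y axis, CPM, starting at 0) in the 4 libraries (x axis), with the number of genes of each list in its title. The meningeal sum is 23.0 and 21.0 CPM in KI2 and KI3 against 11.3 and 12.2 CPM in WT, the choroid plexus sum is highest in KI3 at 71.4 CPM, and the dorsal cortex sum stays between 4059 and 4505 CPM.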

How the data were processed

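Total RNA from E15 cortex was extracted with TRIzol and sequenced on an Illumina HiSeq instrument. The deposited values are raw counts of reads for each gene, made by the authors for 4 libraries, and the submitters' processing notes name Bowtie2 2.2.3, TopHat2 2.0.12, HTSeq 0.6.0 and the mm9 build. The gene positions in the table nevertheless match GRCm38: of 26433 identifiers, 26378 were found in GENCODE M21 and 24485 had the same position there. The annotation and strand setting are not given in the sources used here, so reads of a gene and an overlapping antisense gene cannot be told apart. The table holds only genes with at least 1 read, so 6 of the 47 other pathway genes, Rbp2, Rbp3, Dhrs9, Hoxb1 and Cdx1 among them, were not analysed here. Its columns of the authors' own comparison (mean normalised count, fold change, p-value and adjusted p-value, and calls) were not used.

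A column's name gives its genotype but does not single out a labelled sample. Counts were tested in R 4.3.3 with edgeR 4.0.16 (filterByExpr, TMM, quasi-likelihood test, Benjamini-Hochberg adjustment over all 15786 tested genes, threshold 0.05). Standard errors were taken from the log2 fold change and the F statistic, whose square root is their ratio. An exact permutation test of 2 against 2 libraries cannot go below p = 0.333 and was not used. Alternatives were DESeq2 1.42.0, the likelihood ratio test, other normalizations and filters, a fit that omitted the sex chromosomes, and fits with 1 library omitted. Levels per kilobase used the union of GENCODE M21 exons. The members and all lists were chosen with earlier results of these data known. The text names all members and, from each pathway list, the 2 tested genes of highest mean level, the tested gene of largest fold change, those at or under 3 counts in every library, and the matching extremes of each marker list. Cyp26a1, Aldh1a1, Rdh12, Stra6l, Gsx2, Isl1, Drd1, Zfp503, Foxc1, Lum, Slc6a13, Kl, Aqp1, Clic6, Otx2, Lhx8, Gbx2 and Kdm5d were named after their values were seen. A few results for single genes that this rule takes are not reported or plotted here.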

Additional observations from a re-analysis of the deposited data

How the results depend on the processing

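The 19 genes called over all genes became 54 with edgeR's likelihood ratio test, 6 when every library had to hold 10 counts or more, 11 when the sex chromosomes were left out, and 48 to 71 when a library was left out, in which case the lone library of a group is assumed to vary like the others. The 9 retinoid genes had 0 calls under each of these alternatives and 2 at an unadjusted p under 0.05, a threshold added after the data were seen. The other pathway genes had 1 call with the likelihood ratio test, 1 to 2 when a library was left out (Ttr each time, and 2 without KI3), and 3 at an unadjusted p under 0.05. Of the fold changes of the 7 tested retinoid genes under the alternatives, 79 kept the direction and side of the threshold and 4 changed sign; for the pathway genes that the naming rule takes these numbers were 155 and 16, and 6 crossed the threshold. Fold changes near 0 changed sign, the cause being untested: Ncor1 was at -0.0017 with library totals and -0.0011 with at least 1 count in any library, and Btg2 at -0.00090 and -0.00093. Fold changes farther from 0 also changed sign, Rxrg going from -0.61 to 0.296 without WT3 and Ncoa3 from -0.12 to 0.056 without WT1. Leaving out a library gave log2 fold changes from -0.043 to 0.228 for Rxra, -0.351 to 0.361 for Stra6, -0.019 to 0.106 for Dgat1, -0.069 to 0.084 for Adh5, -0.094 to 0.075 for Dhrs4, -0.034 to 0.125 for Fabp5, -1.31 to 0.296 for Rxrg, -0.164 to 0.192 for Ncor1, -0.286 to 0.056 for Ncoa3 and -0.077 to 0.089 for Btg2. No paired analysis was possible because the columns of the genotypes cannot be matched to labelled samples and the labels share no replicate numbers. Depth limits Aldh1a2, Aldh1a3 and Rarb, at 21 reads or fewer in every library.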
